A study of Mus musculus with 45 samples.

Results

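The clustered histone genes are the genes of the mouse histone gene clusters whose symbols begin with Hist1h, Hist2h, Hist3h or Hist4h. All 68 of the 23284 gene symbols listed in the expression files that begin in that way were taken, whatever their values. They comprise 6 genes for the linker histone H1, 18 for H2A, 19 for H2B (1 of them, Hist3h2bb-ps, carries a pseudogene symbol), 12 for H3 and 13 for H4. By cluster, 54 are Hist1 genes, 10 are Hist2 genes, 3 are Hist3 genes and 1 is the Hist4 gene.

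The study examined the transcription factor Gata4, histone marks and expression in mouse heart, and 6 of its 45 samples are RNA-seq libraries. The labels give primary heart tissue as the source of each. Adult heart has 2 libraries. Embryonic heart of stage E12.5 has 1 library without a genotype label and 1 with the genotype label Gata4 KO, called the Gata4 KO-labelled library. Banding and sham, which the labels list as a stress, have 1 library each, with no age stated. For the series as a whole the labels name the alleles Gata4fbio, Rosa26BirA, cTNTcre and Gata4flox (cTNTcre drives Cre recombinase from a cardiac troponin T promoter, so other heart cells need not lose a floxed gene), but they do not say which RNA library carries which. Pooled RNA was used, purified in 2 rounds on oligo(dT) beads and copied with random hexamers. Whether separate animals or pools gave the adult libraries is not stated, so a p-value reflects only how far these libraries differ, and that spread may be technical.

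Most histone genes of these clusters are replication-dependent. They are transcribed in S phase, when new DNA is packed into nucleosomes, and their transcripts end in a conserved stem-loop, bound by the protein Slbp, in place of a poly(A) tail. Some members also give polyadenylated transcripts, in particular in cells that have left the cell cycle. Oligo(dT) selection retains the polyadenylated forms and loses most of the stem-loop forms, so the levels below undercount the stem-loop transcripts. H2A, H2B, H3 and H4 form the core of the nucleosome, and H1 binds the DNA between nucleosomes.

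The libraries held between 12086929 and 21056784 mapped reads, as recovered from the values. Gata4 stood at 5.93 in the E12.5 library and at 6.13 in the Gata4 KO-labelled library, on the deposited scale of log2(FPKM + 1), where FPKM is fragments per kilobase of transcript, scaled to the mapped reads. The gene total therefore did not separate these libraries, and the deleted part of the gene, which the total may not show, is not stated. Rn45s, the ribosomal RNA precursor, which has no poly(A) tail, stood between 6.21 and 8.94 in the adult and E12.5 libraries and at 12.96 in banding and 12.94 in sham. Markers of primitive red cells were abundant at E12.5 only. Their 5 genes summed to 21255 FPKM at E12.5 and 64667 FPKM in the Gata4 KO-labelled library, and to between 0.521 and 6.92 FPKM in the other libraries, with 4 of the 5 at 0 in each adult library. The defining cardiomyocyte markers were all above 0 in every library.

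Between 21 and 60 members were above 0 in a library. The number was 33 in each adult library, 60 at E12.5, 55 in the Gata4 KO-labelled library, 23 in banding and 21 in sham. Of all listed genes, 66.3% to 73.6% were above 0 in a library. The members took 115 and 114 RPM (mapped reads, scaled to each library's total) in the adult libraries and 114 at E12.5. The 95% exact binomial intervals were 109 to 121, 108 to 120 and 109 to 119. On the same scale the share was 82.6 (78.4 to 86.9) in the Gata4 KO-labelled library, 34.7 (31.7 to 37.9) in banding and 33.3 (30.1 to 36.7) in sham. These intervals cover counting error only. Adult and E12.5 heart thus gave members nearly the same share of reads but from different genes. The sum over genes per length, in FPKM, was 135 and 136 in the adult libraries, 219 at E12.5, 142 in the Gata4 KO-labelled library, 37.1 in banding and 34.4 in sham. In heart tissue, fewer cells of a type and less RNA per cell cannot be told apart.

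**Figure D1:**
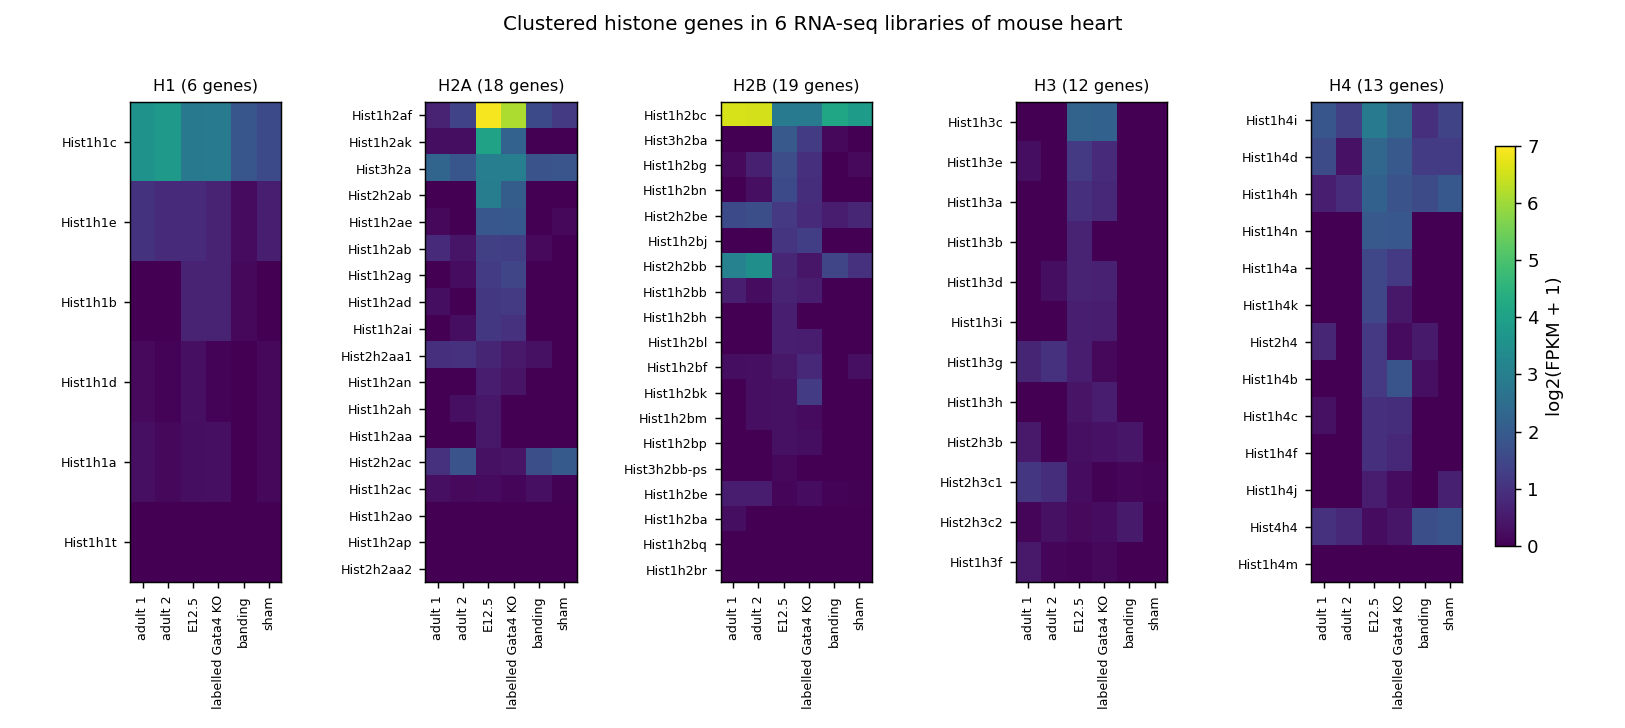
Level of each clustered histone gene, as log2(FPKM + 1) by colour from 0 to 7, in the 6 libraries (columns), 1 panel per histone type with its genes ordered by their level at E12.5. Hist1h2af is brightest in the E12.5 libraries and Hist1h2bc in the adult libraries, and 7 genes are at 0 throughout.

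The type of histone that led the sum differed between the stages. H2B genes made up 77.6% and 79.0% of the members' summed FPKM in the adult libraries and 8.82% at E12.5. H2A genes made up 5.89% and 6.60% in adult and 71.8% at E12.5. In the Gata4 KO-labelled library the shares were 65.2% for H2A and 11.1% for H2B, so the E12.5 libraries shared their leading type. In banding and sham H2B led with 50.9% and 46.0%, with H2A at 19.5% and 20.4% and H4 at 19.5% and 25.6%. H3 genes were low throughout, at 2.12% and 1.75% in adult, 4.09% at E12.5, 5.10% in the Gata4 KO-labelled library, 2.28% in banding and 0.132% in sham. Hist1h2bc alone carried most of the adult sum and Hist1h2af most of the E12.5 sum. Without this pair of genes the sums were 40.8 and 41.4 FPKM in adult, 94.7 at E12.5, 66.0 in the Gata4 KO-labelled library, 18.6 in banding and 19.4 in sham. Members other than Hist1h2bc held 55.4% of the sum in banding and 60.0% in sham. Most of the H2B share in banding and sham was thus also Hist1h2bc.

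**Figure D2:**
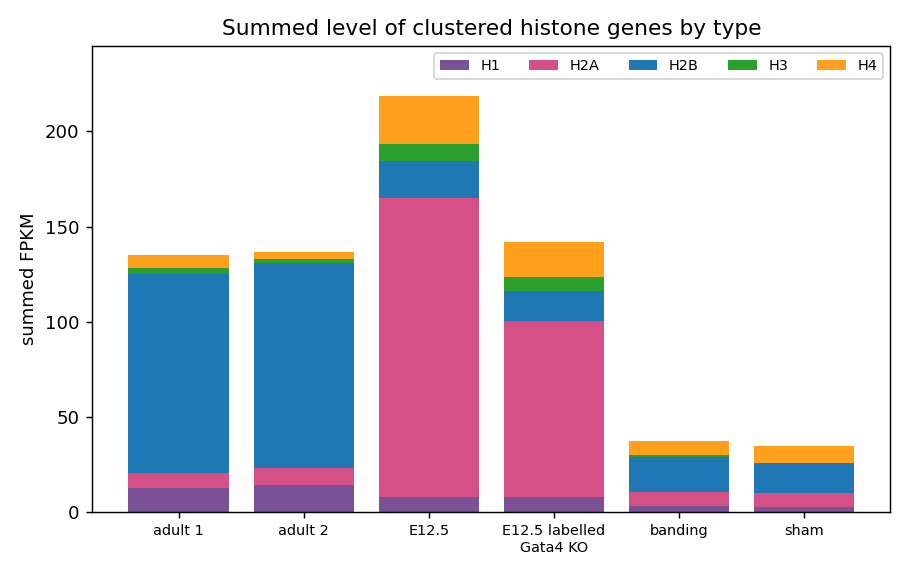
Summed FPKM of the clustered histone genes in each library, stacked by histone type. H2B fills most of both adult bars, which reach 135 and 136, and H2A most of the E12.5 bar, which reaches 219. The bars of banding and sham reach 37.1 and 34.4.

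The start regions of 7 members with contrasting levels are shown here. They are the 4 members of largest decrease in adult heart, 2 members higher in adult heart, and Hist4h4, the only member that reached 1 FPKM in banding and sham and in no other library. The sequences are those of RefSeq on GRCm38.p6, 200 bases before the annotated start, which is not a start measured in heart. For Hist1h2ak the 163 bases run up to the start of its divergent neighbour Hist1h2bn. Each reads 5′ to 3′ along its gene, and capitals mark a TATA box (TATAAA), the short CCAAT box or an octamer (ATTTGCAT) on either strand. Hist1h2bc has no entry in the promoter table.
Hist1h2af: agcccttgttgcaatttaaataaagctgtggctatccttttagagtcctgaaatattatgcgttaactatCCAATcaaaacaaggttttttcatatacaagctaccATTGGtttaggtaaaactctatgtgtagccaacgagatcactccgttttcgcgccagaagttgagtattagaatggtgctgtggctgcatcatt
Hist1h2ak: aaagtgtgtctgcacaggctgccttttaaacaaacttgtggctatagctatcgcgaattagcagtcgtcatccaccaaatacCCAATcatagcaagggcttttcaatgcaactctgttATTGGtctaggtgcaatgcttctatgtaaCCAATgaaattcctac
Hist2h2ab: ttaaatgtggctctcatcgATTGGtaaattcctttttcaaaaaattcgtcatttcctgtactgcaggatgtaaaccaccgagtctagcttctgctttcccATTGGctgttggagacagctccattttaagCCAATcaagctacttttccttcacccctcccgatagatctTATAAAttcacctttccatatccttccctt
Hist1h3c: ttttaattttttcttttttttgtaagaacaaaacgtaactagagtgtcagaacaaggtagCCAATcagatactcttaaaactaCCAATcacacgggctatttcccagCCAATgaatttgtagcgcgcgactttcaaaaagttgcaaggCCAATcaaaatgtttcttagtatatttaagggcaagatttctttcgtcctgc
Hist1h1c: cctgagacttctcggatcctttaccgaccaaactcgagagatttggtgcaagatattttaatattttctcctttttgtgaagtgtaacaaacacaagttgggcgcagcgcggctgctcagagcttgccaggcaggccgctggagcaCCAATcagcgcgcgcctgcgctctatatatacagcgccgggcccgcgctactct
Hist2h2bb: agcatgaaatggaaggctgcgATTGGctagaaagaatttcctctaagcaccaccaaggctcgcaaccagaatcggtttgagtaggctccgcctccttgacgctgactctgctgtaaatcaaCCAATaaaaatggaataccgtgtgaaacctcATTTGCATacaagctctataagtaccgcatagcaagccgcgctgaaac
Hist4h4: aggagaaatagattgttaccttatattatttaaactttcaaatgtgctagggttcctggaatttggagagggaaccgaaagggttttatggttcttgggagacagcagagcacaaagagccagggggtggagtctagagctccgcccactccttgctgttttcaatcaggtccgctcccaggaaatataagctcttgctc

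These windows lie at chr13:23533675-23533874 (plus strand) for Hist1h2af, chr13:21753913-21754075 (minus strand) for Hist1h2ak, chr3:96219685-96219884 (plus strand) for Hist2h2ab, chr13:23745522-23745721 (minus strand) for Hist1h3c, chr13:23738607-23738806 (plus strand) for Hist1h1c, chr3:96269500-96269699 (plus strand) for Hist2h2bb and chr6:136804432-136804631 (minus strand) for Hist4h4. Among those shown, CCAAT stands 4 times in Hist1h3c, 3 times in Hist1h2ak and Hist2h2ab, and not at all in Hist4h4. Over the 61 members with a promoter entry, searched from 250 bases before to 50 after the start on both strands, CCAAT was found in 85.2%, against 37.4% of all 32851 promoters of that length. It was found in each of the 17 H2A, 16 H2B, 10 H3 and 6 H1 promoters, and in 3 of 12 H4 promoters. TATAAA was found in 57.4% of members and 13.6% of all promoters. The octamer ATTTGCAT was found in 21.3% of members, namely 7 H2A and 6 H2B promoters, and in 1.74% of all. Overlapping matches of different motifs were each counted, and a match is a match of letters only. The windows of divergent neighbours overlap, so the same match can count for both genes of a pair, and the promoters counted are not all separate. Among the windows printed, the CCAAT box occurs both in members that were high at E12.5 and in members that were high in adult.

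Adult and E12.5 heart were compared to ask which members differ between a growing and a mature heart. By the adult mean, 46 members were lower in adult heart and 15 were higher, against 62.7% and 37.3% of all genes measured. The higher members were 5 H2B, 4 H3, 3 H2A, 2 H1 and 1 H4 genes. By limma on log2(FPKM + 1), with Benjamini-Hochberg adjustment over the 12658 genes that reached 1 FPKM in 1 or more of the 3 libraries, 5 members rose and 19 fell in adult relative to E12.5. Of all genes tested, 23.4% were called higher and 48.4% lower in adult. Of the 68 members 30 were tested, 31 were measured at lower levels and not tested, and 7 were at 0 in all 6 libraries. A member that was tested only because it reached 1 FPKM at E12.5 had to lie lower in adult, so the counts of tested members are a description. The same holds for the counts by histone type below, which are to be read beside the shares of all genes tested given above. The median difference was -1.12 over the members tested and -0.51 over all genes tested. Under upper-quartile and median-of-ratios scaling the median of all genes was -0.07 and -0.05. Over the 22 and 24 members that were then tested it was -0.99 and -0.95.

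Over all 68 members and without a test, both adult libraries lay below E12.5 in 44 members, above it in 11 and on either side of it in 5, and Hist1h2ba, at 0 at E12.5 and in 1 adult library, was tied. For all genes above 0 in at least 1 of these libraries, 59.3% lay below and 31.3% above. The median difference of the measured members was -0.58, against -0.16 for those genes. At E12.5, 21 members were listed above 0 that were at 0 in both adult libraries, and 1 member was listed only in adult. E12.5 is also the deepest library, and the share of all genes listed on 1 side only was not counted. By the rule of size, which asks for a 2-fold difference on the log2(FPKM + 1) scale and for 5 FPKM or more on the higher side, 2 members were higher in adult (17% of all genes that could pass) and 4 were lower (38.9%).

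**Figure D3:**
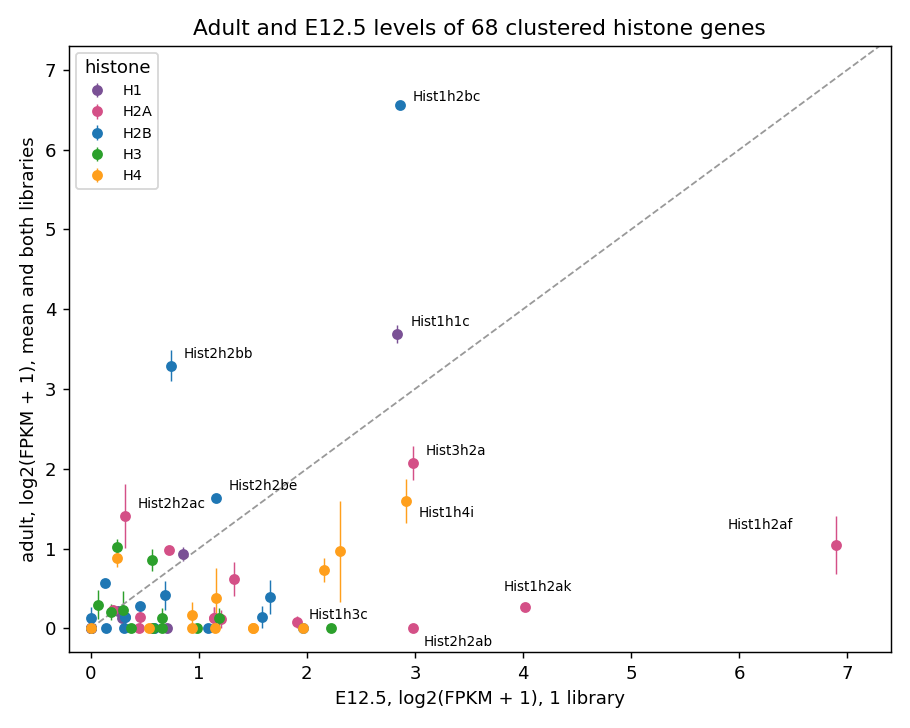
Level of 68 clustered histone genes in adult heart (vertical axis, mean with a bar from one library to the other) against E12.5 heart (horizontal axis, 1 library), both as log2(FPKM + 1), coloured by type. The dashed line marks equal levels. Hist1h2bc at 6.56 against 2.86 stands farthest above it and Hist1h2af at 1.04 against 6.89 farthest below.

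Among the H2A genes, 7 of 10 tested fell in adult heart and none rose. Hist1h2af, a canonical H2A gene of the Hist1 cluster, stood at 0.68 and 1.40 in the adult libraries, 6.89 at E12.5, 6.14 in the Gata4 KO-labelled library, 1.58 in banding and 1.18 in sham. The E12.5 libraries were far above the other 4, with 974 and 486 reads against 3 to 11. The fall in adult was 5.85 on the log2(FPKM + 1) scale: a difference of -5.85 (SE 0.41, limma adjusted p = 0.00672), and the FPKM ratio of E12.5 to adult was 105 (58.4 to 211, exact interval for counting error).

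Hist1h2ak, another canonical H2A gene, stood at 0.26 and 0.27 in adult, 4.02 at E12.5, 2.19 in the Gata4 KO-labelled library, and at 0 in banding and sham. It was read once in each adult library and by 126 reads at E12.5, and the difference was -3.75 (SE 0.09, limma adjusted p = 0.00398). Hist2h2ab was listed at 0 in the adult, banding and sham libraries, at 2.98 at E12.5 (57 reads) and at 2.05 in the Gata4 KO-labelled library (22 reads), with a difference of -2.98 (SE 0.07, limma adjusted p = 0.00398). For the 8 called members that were at 0 in both adult libraries, with 8 to 57 reads at E12.5, the error comes from the trend over other genes and holds no counting error of the E12.5 library. Hist1h2ae, Hist1h2ag, Hist1h2ad and Hist1h2ai also fell, with differences between -1.84 and -1.01.

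The other 3 H2A genes tested did not pass, although each did with both E12.5 libraries in the E12.5 arm (limma adjusted p = 0.0035 for Hist3h2a, 0.0137 for Hist2h2ac and 0.0191 for Hist1h2ab). Hist3h2a stood at 2.28 and 1.87 in adult, 2.98 at E12.5, 2.99 in the Gata4 KO-labelled library, 1.78 in banding and 1.86 in sham. Its difference of -0.91 (SE 0.25) had a limma adjusted p of 0.0656. Hist2h2ac, by contrast, was low at E12.5. It stood at 1.01 and 1.80 in adult, 0.31 at E12.5, 0.37 in the Gata4 KO-labelled library, 1.68 in banding and 1.99 in sham, and its difference of 1.09 (SE 0.44) had a limma adjusted p of 0.125. Hist1h2ab had a difference of -0.71 (adjusted p = 0.0964).

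Among the H2B genes, 3 rose and 4 fell of 7 tested. Hist1h2bc had the highest mean level of all members. It stood at 6.57 and 6.56 in adult, 2.86 at E12.5, 2.90 in the Gata4 KO-labelled library, 4.13 in banding and 3.88 in sham. It was lowest in the E12.5 libraries (96 and 84 reads), higher in banding and sham (169 and 121) and highest in the adult ones (863 and 840), with no overlap. The difference between adult and E12.5 was 3.70 (SE 0.07, limma adjusted p = 0.00398), and the FPKM ratio was 15.0 (12.2 to 18.6). Hist2h2bb stood at 3.10 and 3.48 in adult, 0.74 at E12.5, 0.42 in the Gata4 KO-labelled library, 1.45 in banding and 1.00 in sham. Its adult libraries were again above all others, with 47 and 62 reads against 3 to 12. The difference was 2.55 (SE 0.24, limma adjusted p = 0.00975). Hist2h2be rose by 0.48 (limma adjusted p = 0.0437), from 1.16 at E12.5 to 1.58 and 1.69 in adult.

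The H2B genes that fell were Hist3h2ba (-1.97), Hist1h2bn (-1.44), Hist1h2bg (-1.27) and Hist1h2bj (-1.09). Each was at 1.66 or below at E12.5 except Hist3h2ba, which stood at 1.97 (38 reads) and was at 0 in both adult libraries. The highest H2B level at E12.5 was thus that of Hist1h2bc.

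Of the 2 H1 genes tested, 1 rose in adult heart. Hist1h1c, which encodes the linker histone H1.2, stood at 3.58 and 3.80 in adult, 2.84 at E12.5, 2.92 in the Gata4 KO-labelled library, 1.87 in banding and 1.57 in sham. The adult libraries were highest and banding and sham lowest. It rose in adult by 0.85 (SE 0.15, limma adjusted p = 0.0276). Hist1h1e stood at 1.02 and 0.84 in adult and 0.86 at E12.5, which lies between the adult libraries. Hist1h1b, a further H1 gene, was at 0 in both adult libraries and in sham, and had 9 reads at E12.5 and 7 in the Gata4 KO-labelled library.

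Of the 3 H3 genes tested, 2 fell and 1 rose. Hist1h3c was at 0 in the adult, banding and sham libraries, and stood at 2.22 at E12.5 (37 reads) and 2.17 in the Gata4 KO-labelled library (30 reads). Its difference was -2.22 (SE 0.05, limma adjusted p = 0.00398), and Hist1h3e fell with a difference of -1.06 (limma adjusted p = 0.0175). Hist2h3c1 rose by 0.78 (SE 0.12, limma adjusted p = 0.0228), from 0.24 at E12.5 to 1.12 and 0.92 in adult, and was at 0.11 or below in the other 3 libraries. All 12 H3 genes were above 0 at E12.5, and 1 of them was in sham.

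Of the 8 H4 genes tested, 6 fell and none rose. Hist1h4i stood at 1.87 and 1.33 in adult, 2.92 at E12.5, 2.31 in the Gata4 KO-labelled library, 0.95 in banding and 1.43 in sham. Its difference of -1.32 (SE 0.32) passed narrowly, with a limma adjusted p of 0.0489, which was between 0.0722 and 0.102 under the 3 other scalings. Hist1h4h stood at 0.58 and 0.88 in adult, 2.16 at E12.5 and 1.79, 1.63 and 1.91 in the Gata4 KO-labelled library, banding and sham, so that among the measured libraries the adult ones were lowest. Its difference was -1.43 (SE 0.18, limma adjusted p = 0.0154). Hist1h4n (-1.96), Hist1h4a and Hist1h4k (-1.50 each) and Hist1h4b (-1.15) fell from 8 to 19 reads at E12.5 to 0 in adult. Hist1h4d, at 1.60 and 0.33 in adult and 2.31 at E12.5, did not pass (limma adjusted p = 0.192, and 0.0403 with both E12.5 libraries in the E12.5 arm), and nor did Hist2h4 (adjusted p = 0.197).

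Hist4h4, the single gene of the Hist4 cluster, was below the level for testing. It stood at 0.99 and 0.77 in adult, 0.24 at E12.5, 0.41 in the Gata4 KO-labelled library, 1.68 in banding and 1.81 in sham. Banding and sham were thus above the adult libraries, which were above the E12.5 ones, with 89 and 87 reads in banding and sham, 36 and 25 in adult, and 11 and 17 in the E12.5 libraries. The sham to adult FPKM ratio was 2.95 (2.10 to 4.16).

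Some of these calls ended under another setting. With no minimum level the limma adjusted p was 0.0648 for Hist1h1c, 0.0646 for Hist2h3c1 and 0.0803 for Hist2h2be among the members that rose. Among those that fell it was 0.117 for Hist1h4i, 0.0507 for Hist1h4h and between 0.0569 and 0.0895 for Hist1h2bg, Hist1h2ai, Hist1h2ad and Hist1h3e. With a pseudocount of 0.1 FPKM it was between 0.0638 and 0.0916 for Hist1h2ai, Hist1h2bn, Hist1h2ag, Hist1h3e, Hist1h2bg and Hist1h2ad, 0.0745 for Hist1h4i and 0.0703 for Hist2h2be. With both E12.5 libraries in the E12.5 arm 6 members rose and 22 fell.

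By cluster, of 22 Hist1 genes tested 17 fell and 2 rose, and of 6 Hist2 genes 1 fell and 3 rose, against 48.4% lower and 23.4% higher of all genes tested. Over all members measured, the adult mean was lower than E12.5 in 40 Hist1 genes and higher in 8, and lower in 3 Hist2 genes and higher in 6. It was lower in 62.7% of all genes measured. The difference between the clusters was not tested.

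The recovered transcript length differed among members with different stage patterns. This split was chosen after the values were seen and carries no test. Each length is the shortest, from 300 bases up, that gave whole reads. It equalled the RefSeq length in 7 members and could differ widely, as for Hist3h2a at 1990 against 508 bases. The commonest length was 312 bases for H4 (8 of 12 genes with a length), 393 for H2A (6 of 15), 381 for H2B (7 of 17) and 411 for H3 (4 of 12). All are multiples of 3, as a coding length without untranslated ends is. Another 11 members had models of 1003 to 2977 bases: Hist3h2a, Hist1h3f, Hist1h1d, Hist1h2be, Hist1h1e, Hist1h2ac, Hist1h1c, Hist2h2be, Hist2h3c2, Hist2h3c1 and Hist4h4. Both adult libraries were above E12.5 in 6 of these 11 and below in 2, and the median difference was 0.23. Among the 50 members under 1000 bases, both adult libraries were above E12.5 in 5 and below in 42, and the median difference was -0.71. Of these 50, 22 were above 0 in each adult library and 49 at E12.5, the deepest library. Of all genes measured, whatever their length, 31.3% lay above E12.5 in both adult libraries and 59.3% below. The shares for other genes of like length were not counted. In sham, 9 of the 11 long members and 12 of the 50 short ones were above 0. The largest rises, of Hist1h2bc and Hist2h2bb, were in the shorter class, at 728 and 493 bases. A longer model also collects more reads at the same FPKM.

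**Figure D4:**
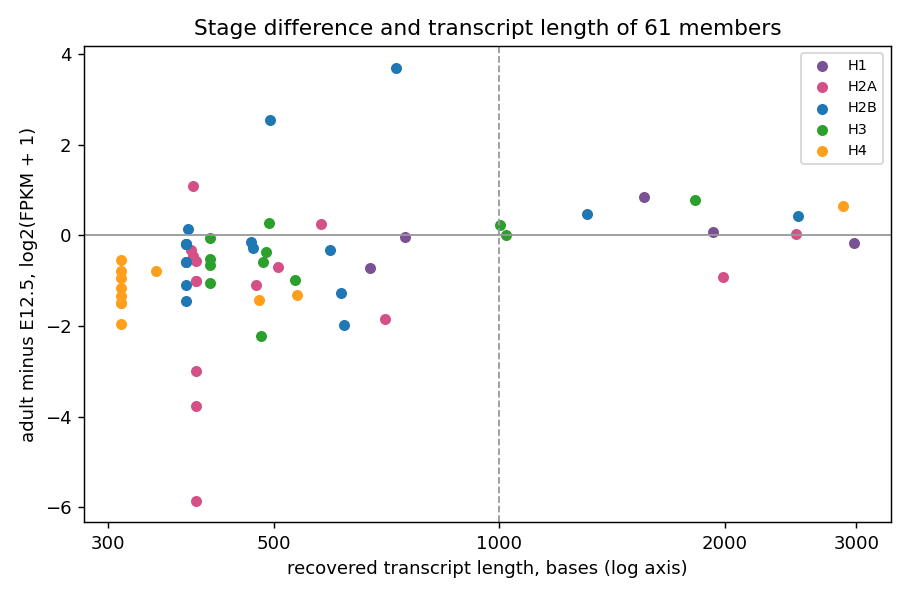
Adult minus E12.5 difference in log2(FPKM + 1) of the 61 members with a recovered transcript length, against that length on a log axis, coloured by type. The solid line marks no difference and the dashed line 1000 bases. Most points left of the dashed line lie below 0, with Hist1h2bc and Hist2h2bb as the highest exceptions, and the 11 points to its right lie between -0.91 for Hist3h2a and 0.85 for Hist1h1c.

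Many H2A and H2B genes of the Hist1 cluster stand in divergent pairs that share a start region, and 9 such pairs have starts 164 to 281 bases apart in RefSeq. In E12.5 the H2A gene had the higher level in all 8 pairs that were measured, and in the Gata4 KO-labelled library in 6 of 7. Some of these orders rested on very few reads. At E12.5 the H2A and H2B reads were 3 and 0 for Hist1h2aa and Hist1h2ba. They were 3 and 2 for Hist1h2ah and Hist1h2bk, and 4 and 3 for Hist1h2an and Hist1h2bp. In the pair whose shared region is printed above, Hist1h2ak stood at 4.02 (126 reads) and Hist1h2bn at 1.58 (16 reads) at E12.5, and at 2.19 (25 reads) and 0.91 (6 reads) in the Gata4 KO-labelled library. Hist1h2ae and Hist1h2bg were closer, at 1.91 (41 reads) and 1.66 (28 reads) at E12.5. The exception was Hist1h2ah at 0 beside Hist1h2bk at 1.22 (9 reads) in the Gata4 KO-labelled library. All pairs together had 17 reads over both adult libraries, 275 at E12.5, 138 in the Gata4 KO-labelled library, 0 in banding and 3 in sham. Hist1h2bc and Hist1h2ac are likewise next to each other on chromosome 13 in RefSeq. In adult heart Hist1h2bc had 863 and 840 reads and Hist1h2ac 7 and 4, with levels of 6.57 and 6.56 against 0.29 and 0.18.

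**Figure D5:**
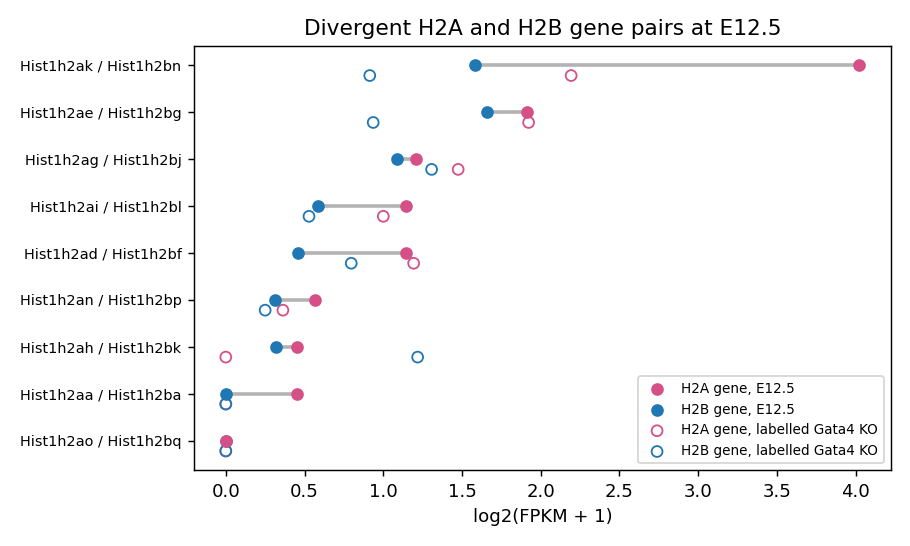
Levels of the H2A gene and the H2B gene of 9 divergent pairs as log2(FPKM + 1), filled for E12.5 and open for the Gata4 KO-labelled library, 1 library each. In E12.5 the H2A point lies to the right in 8 pairs, farthest for Hist1h2ak at 4.02 against 1.58 for Hist1h2bn, and the last pair is at 0.

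The Gata4 KO-labelled library was set against E12.5 heart without a test, since each has 1 library. Members were mostly somewhat lower in the Gata4 KO-labelled library. It was lower in 42 of 60 measured members and higher in 18, whereas 49.5% of all measured genes were lower and 50.5% higher. The median difference was -0.13 over members and 0.00 over all genes. By the rule of size 1 of 7 members that could pass was lower and 0 were higher, against 0.742% lower and 1.36% higher of all genes that could pass. That member was Hist1h2ak, at 2.19 against 4.02, with an E12.5 to Gata4 KO-labelled ratio of 4.26 (2.76 to 6.83, counting error only). Hist1h2af was lower with a ratio of 1.69 (1.52 to 1.89) and Hist2h2ab with a ratio of 2.19 (1.32 to 3.76). Hist2h2ab stayed outside the rule of size, because on the log2(FPKM + 1) scale its difference was -0.93. Hist1h2bc (2.90 against 2.86), Hist1h1c (2.92 against 2.84) and Hist3h2a (2.99 against 2.98) stood at like levels, with ratios of the Gata4 KO-labelled library to E12.5 of 1.03 (0.763 to 1.40), 1.07 (0.872 to 1.32) and 1.01 (0.849 to 1.20). Primitive red cell markers were higher in the Gata4 KO-labelled library, as given above, and their part in these differences was not tested.

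Banding and sham were compared without a test, since each has 1 library, and both gave few reads to members. 39 members were at 0 in both libraries. Of the other 29, 16 were higher in banding and 13 lower, whereas 53.7% and 46.3% of all measured genes were. None passed the rule of size in either direction, against 2.51% higher and 0.998% lower of all genes that could pass, and only Hist1h2bc reached the level that rule needs. It stood at 4.13 in banding and 3.88 in sham, with a ratio of 1.20 (0.948 to 1.53). Hist1h1c stood at 1.87 and 1.57, with a ratio of 1.35 (0.880 to 2.10), and Hist4h4 at 1.68 and 1.81, with a ratio of 0.882 (0.649 to 1.20). These 3 counting intervals include 1. The interval left out 1 for 1 member, Hist1h1e, chosen after its values were seen and without adjustment over members: it stood at 0.20 in banding and 0.60 in sham (4 against 12 reads), with a ratio of 0.287 (0.0676 to 0.948).

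The sham library also differed from the adult libraries. It lay below both in 16 of 41 measured members, above both in 6 and between them in 6, and 13 were at 0 in sham and in 1 of the adult libraries, whereas 50.3% of all measured genes lay below both and 36.1% above both. By the rule of size 3 members were lower in sham than in adult (38.5% of all genes that could pass) and 0 were higher (5.23%). The 3 were Hist1h2bc, at 3.88 against an adult mean of 6.56, Hist1h1c, at 1.57 against 3.69, and Hist2h2bb, at 1.00 against 3.29. The adult to sham ratios were 6.81 (5.66 to 8.26), 6.08 (4.35 to 8.75) and 8.79 (3.91 to 24.5). Rn45s was higher in sham and banding, as given above, its part in these differences was not tested, and the operation and the origin of the libraries cannot be told apart.

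Against E12.5, sham was lower in 55 of 60 measured members and higher in 5, whereas 68.2% and 31.8% of all measured genes were. The rule of size called 1 member higher (10.2% of all genes that could pass) and 6 lower (58.2%). Hist1h2bc was the higher one, with a ratio of 2.20 (1.67 to 2.90), and Hist1h2af, Hist1h2ak, Hist2h2ab, Hist1h4i, Hist1h1c and Hist3h2a were lower. Hist1h2af and Hist1h2bc thus lay on the same sides of E12.5 in sham as in adult. As deposited, Hist1h1c was lower than E12.5 in sham and higher in adult. The lower calls depend on the scaling: under each of the 3 other scalings the rule of size called 2 members lower in sham, in place of 6. The adult and sham comparisons share the E12.5 library.

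Of 24 genes for histone transcription and transcript end processing, 23 were tested by limma between adult and E12.5. Of these 18 fell and 1, Fip1l1, a subunit of the polyadenylation factor, rose, against 48.4% lower and 23.4% higher of all genes tested. The median difference of the list was -0.93, against -0.51 over all genes tested. The list is not limited to factors that act on histone genes alone. It also holds Ccne1, Ccne2 and Cdk2, with differences of -3.28, -3.20 and -2.66. Slbp, which binds the stem-loop, stood at 3.71 and 3.81 in adult, 4.47 at E12.5, 4.54 in the Gata4 KO-labelled library, 2.51 in banding and 2.31 in sham, and fell in adult with a difference of -0.71 (SE 0.10, limma adjusted p = 0.0179). Lsm10 and Lsm11, subunits of the U7 particle that cuts stem-loop transcripts, fell with differences of -2.89 and -1.97 (limma adjusted p = 0.00773 and 0.0044). Npat, the coactivator of histone genes in S phase, fell with a difference of -0.78 (limma adjusted p = 0.0335), and Casp8ap2, also known as Flash, had a difference of -0.39 that did not pass (limma adjusted p = 0.0853).

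The genes listed as replication-independent histone genes all fell: 11 of 11 tested, with a median difference of -2.19. The list is a naming only. Whether each gene, H2afx among them, gives only transcripts with poly(A) tails was not tested. H2afx stood at 2.17 and 2.45 in adult, 7.39 at E12.5, 6.84 in the Gata4 KO-labelled library, 1.56 in banding and 1.23 in sham. H2afz stood at 3.38 and 2.74 in adult, 6.91 at E12.5, 6.31 in the Gata4 KO-labelled library, 2.57 in banding and 2.26 in sham. H3f3a and H3f3b, which encode H3.3, fell by less, with differences of -1.40 and -1.27, and at 7.19 and 7.27 in adult H3f3a stood above every clustered histone gene. Among chaperones, 14 of 21 tested fell and 1 rose, and their median difference of -0.61 was near the -0.51 of all genes tested. All 28 DNA replication genes fell, with a median difference of -3.01, as did all 9 proliferation markers. Rrm2, a subunit of ribonucleotide reductase, stood at 0.76 and 0.64 in adult and 6.94 at E12.5.

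The level of an RNA without a poly(A) tail depends both on its amount in the tissue and on how much passed the selection. Of 7 such genes listed in the files, 6 were tested between adult and E12.5, and 3 fell and 1 rose in adult. Rmrp, the RNA of an RNA-processing enzyme, was at 0 in both adult libraries and stood at 3.44 at E12.5 (57 reads), 2.46 in the Gata4 KO-labelled library, 1.03 in banding and 0.38 in sham. Rpph1 and Rnu11 also fell, with differences of -1.81 and -3.63, while Rn45s rose by 1.24 (limma adjusted p = 0.0174). Over all genes tested 48.4% fell and 23.4% rose. The part of non-polyadenylated RNA in the stage differences was not tested. Of the cell markers, 5 of 5 primitive red cell genes fell, none of 3 leukocyte genes tested passed, 3 cardiomyocyte genes rose and 2 fell of 8, 3 of 4 endothelial genes rose, and 1 fibroblast gene rose and 2 fell of 5. Testis germ cell markers were at 0 in both adult libraries. The part of these cells in the stage differences was not tested.

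The 7 members at 0 in all 6 libraries were Hist1h2bq, Hist1h2br, Hist1h2ao, Hist1h2ap, Hist1h4m, Hist1h1t and Hist2h2aa2. Several clustered histone genes have near-identical copies, so how the authors' counting assigned reads between copies could place a member at 0 or shift reads among members, and values of single genes are uncertain to that extent. At the other end, 15 members were above 0 in every library. Reaching 1 FPKM in at least 1 library of a group, 19 members did so at E12.5 only, Hist1h1e and Hist2h3c1 in adult only, Hist4h4 in banding and sham only, and 36 in no library. The E12.5 group here holds both E12.5 libraries, which are the deepest. Some of these patterns rest on values near the cut, which is 1 on the log2(FPKM + 1) scale. Hist1h1e stood at 1.02 and 0.84 in adult and 0.86 at E12.5, and Hist4h4 at 0.99 in 1 adult library. The share of all genes with each pattern was not counted.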

How the data were processed

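By title, the 6 RNA-seq libraries form 5 groups; the 39 chromatin immunoprecipitation and input samples were not used here. Per the submitters' processing notes, the series names CASAVA 1.8.2, TopHat 1.4, HTSeq 0.5.3, BWA 0.5.9, MACS 1.4 and build mm9; no source used here says which of them produced the expression values. The values deposited by the authors are log2(FPKM + 1), a log2 scale read from the values: undoing it gave whole reads, within 0.001 of a read, in all 6 libraries for 9894 of 9898 genes (99.96%) under 20 FPKM. Mapped reads (12086929 to 21056784) and transcript lengths were recovered from these steps.

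Adult (n = 2) and E12.5 (n = 1) were compared with limma 3.58.1 in R 4.3.3 (mean-variance trend, Benjamini-Hochberg over all 12658 genes reaching 1 FPKM in any of these libraries, threshold 0.05), leaving 1 residual degree of freedom; the script was tested on simulated data. The adult libraries alone give the spread, and E12.5 is assumed to vary alike. Other comparisons have 1 library in at least 1 group and used a rule of size (2-fold on log2(FPKM + 1), at least 5 FPKM in the higher group). Since the pseudocount is 1 FPKM, log2 differences understate changes of low genes; ratios are of FPKM with exact 95% intervals from recovered reads. The members and lists were chosen with earlier results of these data known. Named members were the 12 of highest mean FPKM, those passing limma or the rule of size (up to 12 in each direction), those reaching 1 FPKM in 1 group only and, by name, those at 0 throughout; members named outside this rule (Hist1h1b, the divergent pairs and the long models) were chosen after their values were seen. Of 151 list entries 143 matched a listed symbol, with at most 4 genes named per list plus Slbp, Npat, Lsm10, Lsm11 and Casp8ap2. Of the members 67 matched 1 RefSeq record. Alternatives were 3 scalings, a pseudocount of 0.1, other minimum levels, no trend, both E12.5 libraries in the E12.5 arm, all libraries in 1 fit and leaving out each adult library. Python 3.11.15 was used for the rest.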

Additional observations from a re-analysis of the deposited data

How the results depend on the processing

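Relative to the values in the report, the 5 members higher in adult than E12.5 by limma became 3 with no minimum level and 3 with a minimum of 5 FPKM. The 19 lower became 12 under upper-quartile scaling, 12 under median-of-ratios scaling, 12 when rescaled without the 50 highest genes, 12 with a pseudocount of 0.1 and 5 with a minimum of 5 FPKM. Under each of the 3 scalings 13 of the 19 were still tested and 1 of these missed the threshold. With a pseudocount of 0.1, 7 missed it, and the cause was not tested. By the rule of size, the 2 members higher in adult became 1 with a minimum of 10 FPKM, and the 4 lower became 2 under each scaling, 2 with a minimum of 10 FPKM and 20 with a minimum of 1 FPKM. The 1 member lower in the Gata4 KO-labelled library became 2 with a pseudocount of 0.1 and 2 with a minimum of 1 FPKM. With a minimum of 1 FPKM, 1 member was higher in sham than adult, and 3 were higher and 23 lower in sham than E12.5; the 6 lower there became 2 under each scaling and 2 with a minimum of 10 FPKM.

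The ratio of summed FPKM, adult to E12.5, was 0.621 as deposited, 0.872, 0.885 and 0.787 under upper-quartile scaling, median-of-ratios scaling and rescaling without the 50 highest genes, and 0.199 without the highest member, Hist1h2bc. In the same order the sham to adult ratio of 0.253 became 0.418, 0.361, 0.430 and 0.490, and the sham to E12.5 ratio of 0.157 became 0.364, 0.320, 0.338 and 0.0973. The banding to sham ratio of 1.08 reversed to 0.975 without the 50 highest genes and to 0.996 without Hist1h2bc; the cause was not tested. For single members, 38 alternative values lost the call and 5 gained it. Of 357 such values 1 had the other sign, that of Hist1h1e, not called in either direction, at -0.01 without adult replicate 1 against 0.07. Leaving out each adult library in turn left 2 members higher and 4 to 5 lower than E12.5 by the rule of size, with Hist3h2a the added one without adult replicate 1, and 0 higher and 3 lower in sham. No paired analysis was possible because adult is the only group with more than 1 RNA library. Depth limits the low members, 4 of the 19 having 10 or fewer reads at E12.5.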
